A study of Mus musculus with 30 samples.

Results

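The 27 genes described here encode receptors for the inhibitory transmitters GABA and glycine, the enzymes and transporters that make, load, take up and break down GABA, the scaffold and adhesion proteins of the inhibitory postsynapse, and a pair of chloride cotransporters. They were listed by name and role, with earlier results of these data known. All 27 listed symbols were found among the 18240 genes of the table. They comprise 9 GABA-A receptor subunits, 2 GABA-B receptor subunits, 5 genes of GABA synthesis, loading, uptake and breakdown, 3 glycine receptor subunits, 5 scaffold and adhesion genes, 1 receptor assembly gene and 2 chloride cotransporters. The measurements are bulk RNA sequencing of prefrontal cortex from C57BL/6J mice at postnatal day 40, in 30 libraries. The groups are mice heterozygous for Adnp (HT) given fluoxetine (4 female and 4 male libraries), HT mice given lithium (3 female and 4 male), HT mice given vehicle (4 female and 3 male) and wild-type (WT) mice given vehicle (4 female and 4 male). Adnp encodes a homeodomain protein of chromatin. Fluoxetine is a serotonin reuptake inhibitor and lithium a mood stabiliser. The design thus holds no WT mice given either drug, so each drug was measured on the HT background alone. The sources used here do not state drug dose, drug duration or the form of the Adnp allele. Nor do the labels say whether replicates are separate mice, and the p-values therefore measure the spread between these libraries.

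GABA is made from glutamate by the glutamate decarboxylases encoded by Gad1 and Gad2, and is packed into vesicles by the transporter encoded by Slc32a1. It opens GABA-A receptors, which are pentameric chloride channels, and activates GABA-B receptors, which act through G proteins. Gephyrin, encoded by Gphn, anchors glycine and GABA-A receptors under the synapse. Whether the channel current inhibits a neuron depends on its chloride gradient, which Slc12a5 (KCC2, chloride extrusion) and Slc12a2 (NKCC1, chloride uptake) set in opposite directions. In cortex, GABA is released by interneurons, a minority of the neurons, while the receptors sit on excitatory and inhibitory neurons alike. The projection neurons of the striatum and the granule and periglomerular cells of the olfactory bulb are also GABAergic.

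Libraries held 23771758 to 34307061 reads assigned to genes. Values are the deposited normalized counts, that is reads per gene divided by 1 size factor per library. As a check of the genotype labels, the summed count of Adnp and Gm20716, an annotated gene whose exons overlap those of Adnp on the same strand (chromosome 2), was 3536 to 3795 in the 7 HT vehicle libraries and 4226 to 4433 in the 8 WT vehicle libraries, without overlap. Under the symbol Adnp alone, HT vehicle libraries averaged 2251 ± 137 counts (SD, n = 7), against 1898 ± 157 in the WT vehicle libraries (SD, n = 8), and so were higher, opposite to the sum. This difference was called (log2 0.26 ± 0.05 SE, adjusted p = 0.00996 in limma), as was that of HT fluoxetine against WT vehicle (0.20 ± 0.05, adjusted p = 0.0384). Since the 2 genes share exonic sequence, the single count is uncertain. Markers of cortical excitatory neurons were present in every library, with 33543 to 55735 counts of Slc17a7, the vesicular glutamate transporter. The libraries also held transcripts that mark neighbouring regions, in amounts that differed widely between libraries of every condition. The 16 striatal markers had a mean log2 value of 7.10 to 10.9 per library, and the 13 tested olfactory bulb markers 5.85 to 10.3. Summed over the 16 striatal markers, counts were 11986 to 63056 in HT fluoxetine, 11508 to 28241 in HT lithium, 12055 to 41721 in HT vehicle and 11956 to 39884 in WT vehicle libraries. Summed over the 14 of 16 olfactory bulb markers in the table, they were 4736 to 15228 in HT fluoxetine, 5616 to 27049 in HT lithium, 5602 to 25121 in HT vehicle and 4503 to 14461 in WT vehicle libraries. The conditions overlapped in both sums. Drd1, a dopamine receptor of striatal neurons, had 100 to 1668 counts, and Eomes, which marks olfactory bulb projection neurons, 3.43 to 976 counts. None of Slc17a7, Drd1, Drd2, Adora2a, Eomes, Tbx21 and Th was at 0 in any library. HT lithium male 4 and HT vehicle female 1 had the highest olfactory bulb means, 10.3 and 10.2, and differences of Gad1, Slc6a11, Gabra5, Gabrd, Gabrg3, Gabbr1 and Gabbr2 are also given without both.

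The 4 genes that varied most among the GABA synthesis and transport genes are shown first by their promoters, because their values vary across the libraries in different pairs. The runs are the 250 bases before the transcription start in RefSeq (build GRCm38.p6), 5′ to 3′ along the gene, in lower case with capitals marking a GC box (GGGCGG) or a TATAAA element on either strand.
Gad1: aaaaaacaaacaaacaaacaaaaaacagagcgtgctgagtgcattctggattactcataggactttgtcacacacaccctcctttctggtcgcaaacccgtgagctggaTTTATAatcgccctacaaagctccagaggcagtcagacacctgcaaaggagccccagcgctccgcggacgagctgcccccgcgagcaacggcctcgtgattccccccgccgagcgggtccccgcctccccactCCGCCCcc
Gad2: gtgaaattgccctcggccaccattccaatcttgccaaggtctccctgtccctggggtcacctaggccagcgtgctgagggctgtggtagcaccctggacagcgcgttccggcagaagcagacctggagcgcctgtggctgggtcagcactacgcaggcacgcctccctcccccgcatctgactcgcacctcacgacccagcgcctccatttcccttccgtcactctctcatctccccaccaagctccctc
Slc32a1: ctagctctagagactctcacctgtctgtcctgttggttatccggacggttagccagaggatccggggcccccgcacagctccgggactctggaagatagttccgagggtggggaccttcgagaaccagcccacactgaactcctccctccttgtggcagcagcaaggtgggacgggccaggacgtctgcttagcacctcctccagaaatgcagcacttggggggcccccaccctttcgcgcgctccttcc
Slc6a11: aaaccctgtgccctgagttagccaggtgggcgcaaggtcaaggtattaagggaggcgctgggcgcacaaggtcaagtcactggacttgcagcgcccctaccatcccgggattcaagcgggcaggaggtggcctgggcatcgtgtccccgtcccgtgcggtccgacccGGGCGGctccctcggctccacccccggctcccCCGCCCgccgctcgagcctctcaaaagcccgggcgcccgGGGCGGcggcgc
All 4 lie on the plus strand, at chr2:70561879-70562128 for Gad1, chr2:22622077-22622326 for Gad2, chr2:158610508-158610757 for Slc32a1 and chr6:114130991-114131240 for Slc6a11. Gad1 holds 1 GC box and 1 TATAAA element on the minus strand, whose first base lies 141 bases before the start, and Slc6a11 holds 3 GC boxes. Neither motif was found in the windows of Gad2 and Slc32a1. GC content was 58% for Gad1, 64% for Gad2, 62.4% for Slc32a1 and 71.2% for Slc6a11, against a median of 52.4% over all 32851 promoter windows of the same length in the RefSeq table. A GC box was present in 17 of the 24 members with an entry in that table and in 32.7% of all windows. A TATAAA element was present in 4 of the 24 (Gabra3, Gabrb2, Gad1 and Glra2) and in 12.4% of all windows. The letters TAATTA occurred in 1 member, Gabrg1, and in 4.84% of all windows, and TGACGTCA in 0 members and 1.55% of windows. A member with several windows (29 windows in all for the 24) was counted once if any of them matched, so these counts of genes are not shares of windows: GC boxes were in 17 and TATAAA in 5 of the 29 windows. Both strands were searched, and a match describes letters, not a bound site.

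Levels between genes were compared as normalized counts per kilobase of exon, averaged over the 30 libraries. Slc12a5, which extrudes chloride, and Gabbr1, a GABA-B receptor subunit, were at the top with 2742 and 2731 per kilobase, and were not ordered by these data, since Slc12a5 was above Gabbr1 in 16 of 30 libraries. Gabbr2, the other GABA-B subunit, followed with 1741, then Nlgn2, an adhesion protein of inhibitory synapses, with 1617, and Gad1 with 1276. Gabra3 (1211) was below Gad1 in 15 of 30 libraries only, so that this pair was not ordered either. Glrb, the glycine receptor beta subunit that binds gephyrin (1027), Abat, which breaks GABA down (1023), and Slc6a11, the GABA transporter GAT-3 found mainly on astrocytes (1006), formed a run in which each gene exceeded the next in 17 to 19 of 30 libraries. At the bottom were Gabrg3 with 98.6, Gabrg1 with 77.7 and Glra3, a glycine receptor alpha subunit, with 28.7 per kilobase. Gabrg1 exceeded Glra3 in 30 of 30 libraries.

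**Figure D1:**
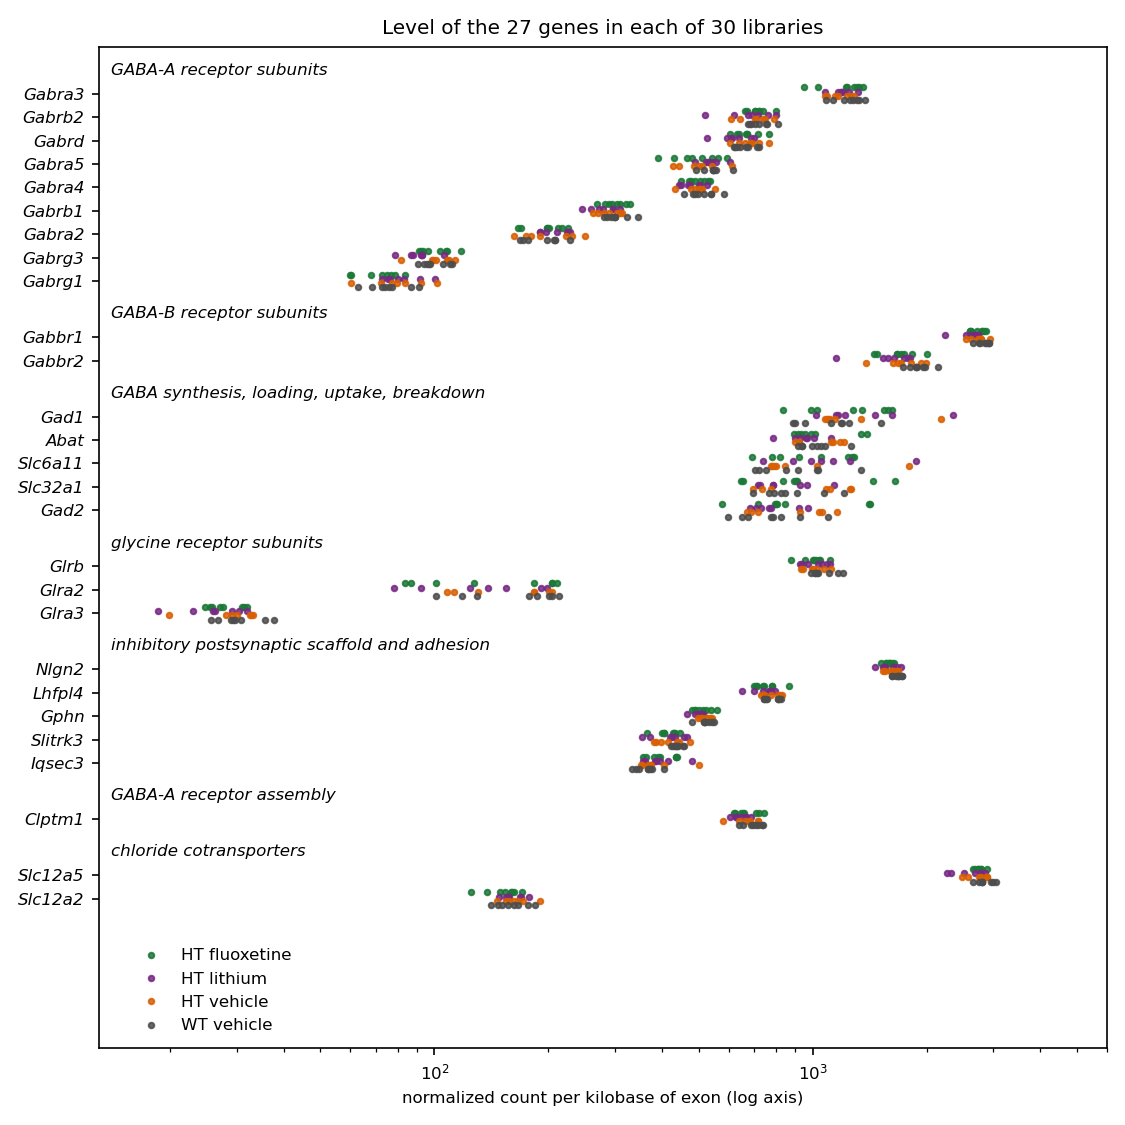
Normalized count per kilobase of exon (log axis) of the 27 genes, grouped by role, with 1 point per library and colours for HT fluoxetine, HT lithium, HT vehicle and WT vehicle. Slc12a5 and Gabbr1 lie highest at means of 2742 and 2731, Glra3 lowest at 28.7, and the 4 conditions overlap for every gene.

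Among the 4 listed alpha subunits, Gabra3 held 45.9% to 53.5% of the level per kilobase in every library (mean 49.8%), while Gabra2 held 6.55% to 10.3%. Of the 2 listed beta subunits, Gabrb2 held 66.8% to 72.2%. Of the 3 listed gamma and delta subunits, Gabrd, whose receptors lie mostly outside the synapse and carry tonic current, held 75.4% to 82.2%. These shares cover only the listed subunits and not the receptors as a whole. The ratio of Slc12a5 to Slc12a2 per kilobase was 15.6 to 23.2 in HT fluoxetine, 12.7 to 18.7 in HT lithium, 13.1 to 19.7 in HT vehicle and 15.2 to 20.9 in WT vehicle libraries. The ratio of Gad1 to Gad2 ranged more widely, at 0.902 to 2.03 in HT fluoxetine, 1.11 to 2.42 in HT lithium, 0.991 to 2.36 in HT vehicle and 1.09 to 1.92 in WT vehicle libraries. The conditions overlapped in both ratios.

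Differences between conditions were tested with limma on log2(normalized count + 1) over the 16824 genes averaging 10 or more, with Benjamini-Hochberg adjustment over all of them and a threshold of 0.05. All 27 members passed that filter. The first comparison asked which genes the Adnp genotype shifts in vehicle-treated mice. In HT vehicle against WT vehicle, 0 of the 27 members passed, beside 0.731% of all genes, and 0 members had an unadjusted p under 0.05, beside 6.6% of all genes. edgeR and DESeq2 on the recovered reads also called 0. The log2 differences ran between -0.14 (Gabbr2) and 0.18 (Gad2), with 12 positive and 15 negative and a median of -0.04, against a median of -0.001 over all genes tested. The 95% intervals of 23 members lay within 0.5 log2 units of 0, and those of 14 within 0.2. The exceptions were Gad1, Gad2, Slc32a1 and Glra2, whose intervals reached 0.56, 0.55, 0.53 and -0.55.

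The drug comparisons asked what each drug changes in HT mice. In HT fluoxetine against HT vehicle, 0 members passed, beside 0.0357% of all genes, and 0 had an unadjusted p under 0.05, beside 2.63%. In HT lithium against HT vehicle, 0 members passed, beside 0.0892% of all genes, and 2, Gabrg3 and Gabrd, had an unadjusted p under 0.05, beside 5.72%. edgeR and DESeq2 called 0 members in both. The log2 differences had a median of -0.01 under fluoxetine (9 positive, 18 negative) and -0.05 under lithium (8 positive, 19 negative), against -0.0016 and -0.0039 over all genes. Both drug comparisons and the genotype comparison share the 7 HT vehicle libraries. No member separated the libraries of the paired conditions without overlap in any of these comparisons or in those of drug-treated HT with WT vehicle mice, where 9 to 122 of the 16824 genes did.

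**Figure D2:**
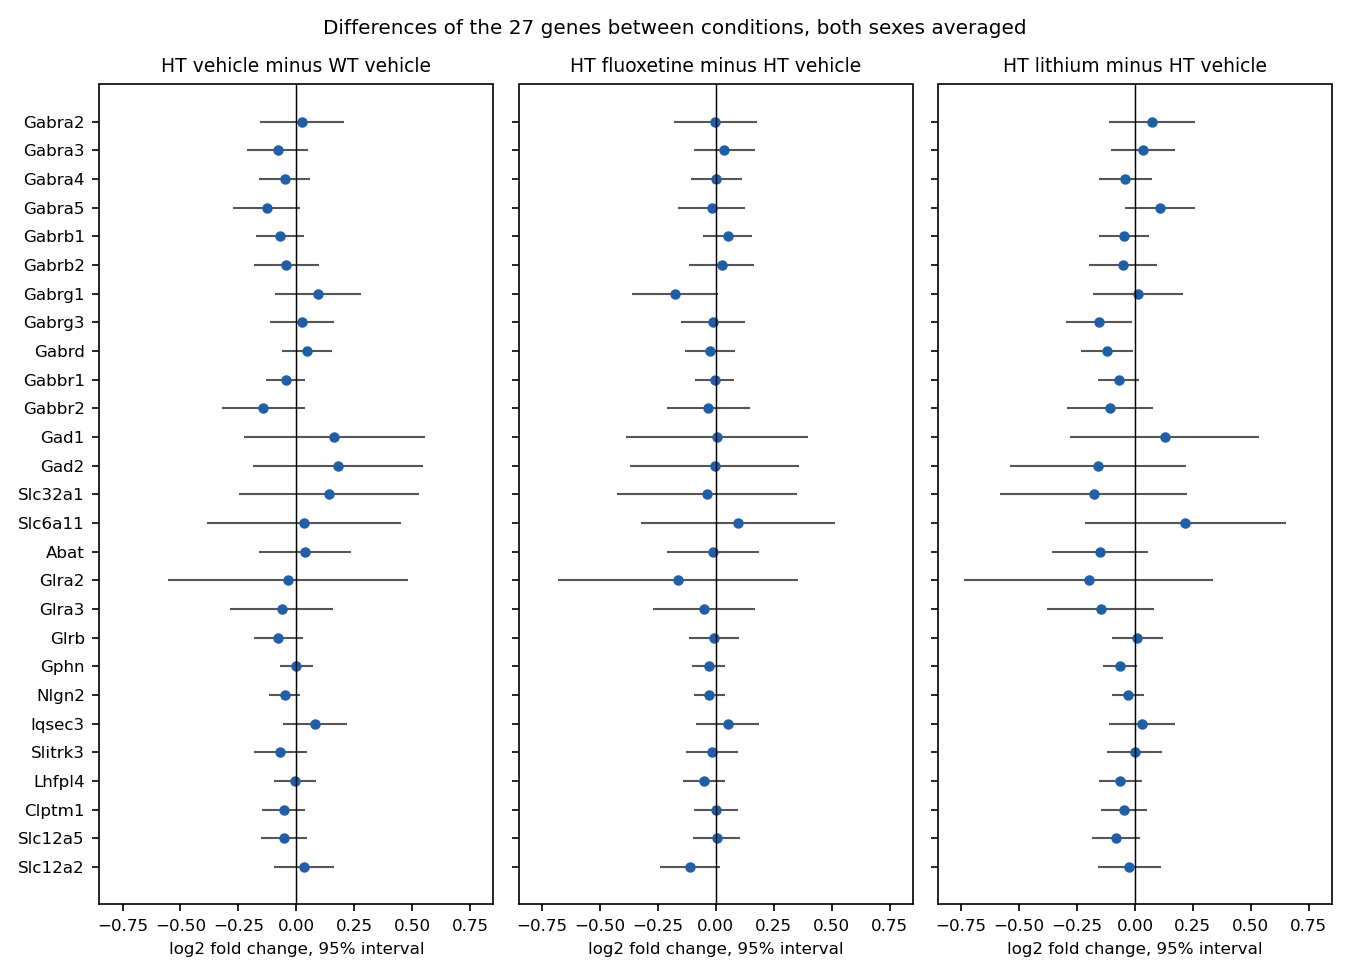
Log2 fold change of each of the 27 genes with its 95% interval (limma, both sexes averaged) for HT vehicle minus WT vehicle, HT fluoxetine minus HT vehicle and HT lithium minus HT vehicle. Every interval includes 0 except those of Gabrg3 and Gabrd under lithium, and the widest belong to Glra2, Slc6a11, Gad1, Slc32a1 and Gad2.

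Of the GABA-A receptor subunits, Gabrg3, which encodes a gamma subunit, had the smallest p under lithium. Its lowest, median and highest counts were 937, 1099 and 1268 in HT lithium (n = 7) and 973, 1207 and 1355 in HT vehicle libraries (n = 7), and it had 1084, 1192 and 1404 in HT fluoxetine (n = 8) and 1082, 1159 and 1328 in WT vehicle libraries (n = 8). The HT lithium median lay below the others, and the ranges overlapped. The log2 difference of lithium was -0.16 ± 0.07 (SE), with an adjusted p of 0.873 in limma. Gabrd had 1516, 1763 and 2017 counts in HT lithium and 1738, 1963 and 2206 in HT vehicle libraries, against 1735, 1924 and 2200 in HT fluoxetine and 1777, 1885 and 2076 in WT vehicle libraries. Its lithium difference was -0.12 ± 0.05 (SE), with an adjusted p of 0.873 in limma. With both HT lithium male 4 and HT vehicle female 1 left out, the differences were -0.17 for Gabrg3 and -0.12 for Gabrd. With striatal and olfactory bulb marker means as covariates they were -0.07 and -0.06. The median striatal marker mean was 7.39 in HT lithium and 7.77 in HT vehicle libraries, and the median olfactory bulb mean 8.60 in HT lithium and 7.67 in HT vehicle libraries. Their part in these differences was not tested beyond that fit.

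The lithium difference of both genes was larger in males, though the test of a difference between the sexes did not pass for either. In males, Gabrd had 1516, 1707, 1749 and 1837 counts in the 4 HT lithium libraries and 1841, 1963 and 2206 in the 3 HT vehicle libraries, which did not overlap. In females it had 1763, 1977 and 2017 counts in HT lithium and 1738, 1907, 1985 and 2071 in HT vehicle libraries. The log2 difference was -0.23 ± 0.08 (SE) in males and -0.00 ± 0.08 in females. The test of that difference between the sexes gave -0.23 ± 0.11 (SE), with an adjusted p of 0.494 in limma, and -0.13 without the 2 libraries. Gabrg3 had 937, 1046, 1099 and 1110 counts in male HT lithium libraries and 1181, 1292 and 1301 in male HT vehicle libraries. In females the values were 1033, 1109 and 1268 in HT lithium and 973, 1178, 1207 and 1355 in HT vehicle libraries. Its difference between the sexes was -0.22 ± 0.14 (SE), with an adjusted p of 0.549 in limma. Among males, 4 of the 27 members (Gabrg3, Gabrd, Gphn and Iqsec3) had no overlap between HT lithium and HT vehicle libraries, beside 10% of all genes. Of the male lithium differences, 3 members had an unadjusted p under 0.05, beside 13.8% of all genes, and 0 passed the adjusted threshold, beside 0.0773%.

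Gabrg1, a gamma subunit gene, had the smallest p of any member under fluoxetine. It had 472, 582 and 658 counts in HT fluoxetine, 573, 630 and 790 in HT lithium, 474, 628 and 802 in HT vehicle and 496, 590 and 716 in WT vehicle libraries. The highest HT fluoxetine library lay below 2 of the HT vehicle libraries, and the remaining values overlapped. The fluoxetine difference was -0.18 ± 0.09 (SE), with an adjusted p of 1 in limma. Gabrg1 was also the member with the smallest p between the sexes, at 0.14 ± 0.06 (SE) for male minus female and an adjusted p of 0.553. Gabra5, whose subunit is enriched in hippocampus and in receptors outside the synapse, had 1160, 1469 and 1761 counts in HT fluoxetine, 1455, 1589 and 1797 in HT lithium, 1269, 1488 and 1815 in HT vehicle and 1466, 1623 and 1836 in WT vehicle libraries. Its genotype difference was -0.13 ± 0.07 (SE) with an adjusted p of 0.859 in limma, and -0.17 without the 2 libraries (adjusted p = 0.458). The remaining subunits, Gabra2, Gabra3, Gabra4, Gabrb1 and Gabrb2, differed by -0.08 to 0.02 by genotype, -0.00 to 0.05 under fluoxetine and -0.05 to 0.07 under lithium. Gabra4 and Gabrb1 overlap by 46 exonic bases on opposite strands. Gabra5 overlaps Gm9962 by 148 exonic bases and Gphn overlaps Gm48226 by 147, also on opposite strands. The library kit marks strand, but the sources used here do not state how strand was handled in the counting.

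The GABA-B receptor genes had their lowest medians in HT lithium libraries. Gabbr1, which binds GABA, had 20202, 21395 and 22352 counts in HT fluoxetine, 17356, 20775 and 21276 in HT lithium, 19724, 21384 and 22807 in HT vehicle and 20596, 22206 and 22682 in WT vehicle libraries. Gabbr2, which couples to the G protein, had 9734, 11310 and 13452 in HT fluoxetine, 7698, 10986 and 12098 in HT lithium, 9236, 11448 and 13338 in HT vehicle and 11570, 12590 and 14350 in WT vehicle libraries. The WT vehicle libraries were the highest by median for both genes, and the ranges overlapped. In HT lithium against WT vehicle, Gabbr2 differed by -0.25 ± 0.09 (SE) and Gabbr1 by -0.12 ± 0.04 (SE), with adjusted p-values of 0.136 and 0.141 in limma, the smallest of all members in any comparison. Without the 2 libraries these were -0.18 and -0.08. With group means removed, both genes were lower in libraries with lower excitatory neuron markers, with r = 0.88 for Gabbr2 and 0.73 for Gabbr1 over 30 libraries. Without the 2 libraries farthest from the median marker value, r was 0.78 and 0.55. Gabbr1 also had r of -0.69 with the olfactory bulb, -0.66 with the astrocyte and -0.65 with the interneuron mean. The part of the excitatory neuron and astrocyte markers in the differences between conditions was not tested. Separate fits took the striatal and olfactory bulb means, or the interneuron mean, as covariates. Neither gene was called in HT lithium against WT vehicle in those fits, and their differences there are not given here. HT lithium male 4 had the lowest Slc17a7 count of all libraries, 33543.

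**Figure D3:**
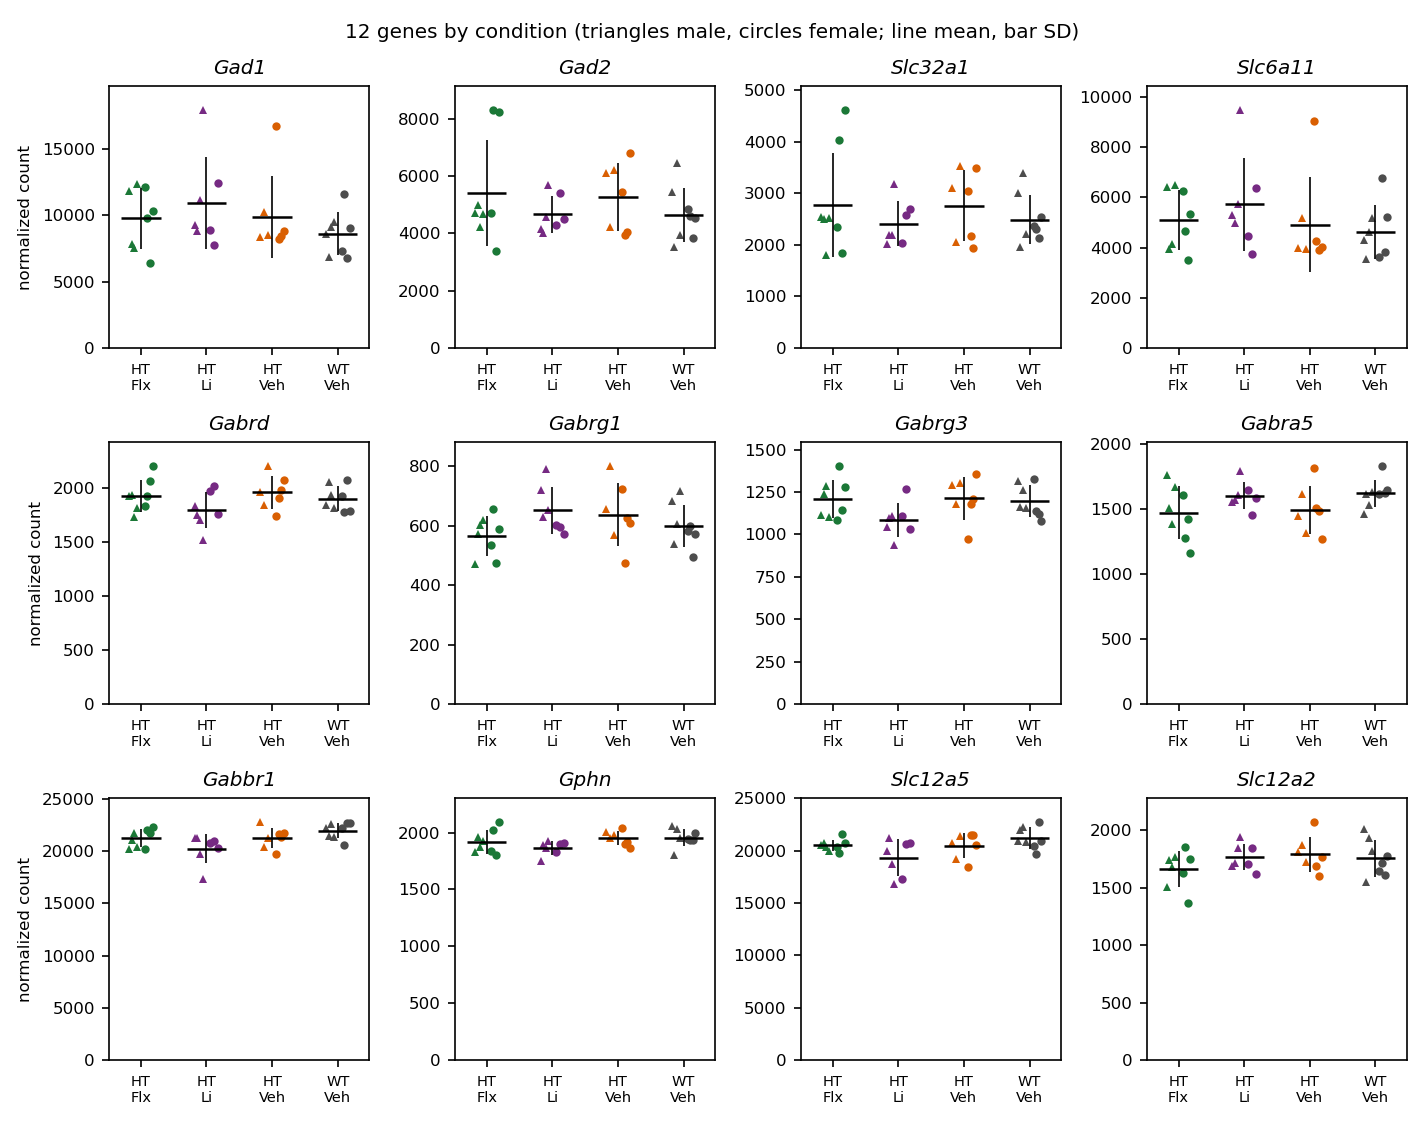
Normalized counts of 12 of the genes in HT fluoxetine (HT Flx), HT lithium (HT Li), HT vehicle (HT Veh) and WT vehicle (WT Veh), with triangles for male and circles for female libraries, a line at the mean and a bar of 1 SD. Gad1 and Slc6a11 each have 1 high library in HT lithium (17925 and 9492) and 1 in HT vehicle (16721 and 9055), and Gad2 and Slc32a1 have 2 high HT fluoxetine libraries.

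Of the genes of GABA synthesis and transport, Gad1, Gad2, Slc32a1 and Slc6a11 varied more over all 30 libraries than any other member except Glra2. The coefficient of variation was 27.2% for Gad1, 24.8% for Gad2, 26.2% for Slc32a1, 29.5% for Slc6a11, and 13.9% for Abat, against 4.08% for Nlgn2 and 4.26% for Gphn. Gad1 had 6394, 10045 and 12367 counts in HT fluoxetine, 7787, 9279 and 17925 in HT lithium, 8237, 8471 and 16721 in HT vehicle and 6792, 8806 and 11553 in WT vehicle libraries. The highest HT lithium and HT vehicle values came from HT lithium male 4 and HT vehicle female 1. Gad2 had 3377, 4710 and 8317 counts in HT fluoxetine, 4019, 4509 and 5698 in HT lithium, 3941, 5454 and 6812 in HT vehicle and 3510, 4587 and 6444 in WT vehicle libraries. Slc32a1 had 1804, 2511 and 4622 counts in HT fluoxetine, 2010, 2199 and 3180 in HT lithium, 1944, 3039 and 3528 in HT vehicle and 1950, 2334 and 3388 in WT vehicle libraries. For these 3 genes all conditions overlapped. Slc6a11, also highest in HT lithium male 4 and HT vehicle female 1, had 3501, 4990 and 6495 counts in HT fluoxetine, 3732, 5313 and 9492 in HT lithium, 3913, 4041 and 9055 in HT vehicle and 3564, 4458 and 6775 in WT vehicle libraries. Its conditions overlapped too, and its lithium difference was 0.22 ± 0.21 (SE), or 0.26 without the 2 libraries.

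By genotype, all 5 genes of this role had positive differences without any passing the test, led by Gad2 at 0.18 ± 0.18 (SE), Gad1 at 0.16 ± 0.19 and Slc32a1 at 0.14 ± 0.19. Without the 2 libraries, Gad1 differed by 0.04, and Slc6a11 by -0.11 in place of 0.03. Under lithium, Gad1 differed by 0.13 ± 0.20 (SE), or 0.14 without the 2 libraries, and Gad2 by -0.16 ± 0.18. Under fluoxetine the differences were 0.01 ± 0.19 for Gad1 and -0.00 ± 0.18 for Gad2. Abat, encoding GABA transaminase, differed by 0.04 by genotype, -0.01 under fluoxetine and -0.15 under lithium. The 95% intervals under lithium ran from -0.28 to 0.53 for Gad1, from -0.54 to 0.22 for Gad2 and from -0.58 to 0.23 for Slc32a1. In bulk tissue, fewer cells of a type and less RNA per cell cannot be told apart.

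The values of these genes were related to several marker lists. With the mean of each library's group removed, the log2 values of Gad2 correlated with the striatal marker mean (r = 0.84, rho = 0.82, n = 30), as did those of Slc32a1 (r = 0.75, rho = 0.69) and Abat (r = 0.73, rho = 0.67). Permutation within groups gave adjusted p-values of 0.000595, 0.0049 and 0.00803 for r and 0.00101, 0.0114 and 0.0149 for rho. Gad1 and Slc6a11 correlated with the olfactory bulb marker mean (r = 0.85, rho = 0.84 for Gad1 and r = 0.90, rho = 0.88 for Slc6a11), each with an adjusted permutation p of 7e-05 for r, from the smallest p that 100000 permutations can give (1e-05), and 8.75e-05 for rho. Without the 2 libraries farthest from the median marker value, r was 0.80 for Gad2, 0.69 for Slc32a1, 0.66 for Abat, 0.82 for Gad1 and 0.89 for Slc6a11. The same genes were related to markers that are not regional. With the mean of the cortical excitatory neuron markers, r was -0.91 for Gad1, -0.86 for Slc6a11, -0.61 for Slc32a1, -0.57 for Abat and -0.52 for Gad2, and rho was -0.90, -0.81, -0.62, -0.56 and -0.52 in the same order, with adjusted permutation p-values of 0.0001 to 0.0105 for r and 0.00014 to 0.0149 for rho. With the mean of the astrocyte markers, r was 0.81 for Gad1 and 0.86 for Slc6a11 and rho 0.78 and 0.81, with adjusted permutation p-values of 0.000175 and 0.0001 for r and 0.0003 and 0.000233 for rho. Without the 2 farthest libraries these r ranged from -0.87 to -0.51 for the excitatory list and were 0.75 and 0.80 for the astrocyte list. Gad1 and the olfactory bulb markers share libraries and size factors, as do all of these pairs. The 7 members tested against 5 marker lists gave 35 relations, of which 18 had an adjusted permutation p under 0.05 for r. These members and lists were picked with results of the same libraries known. The permutation p-values are therefore not independent support for the relations.

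The pairing also held among the genes themselves. Gad2 and Slc32a1 varied together (r = 0.95, rho = 0.92, n = 30, as a description), and Gad1 and Slc6a11 likewise (r = 0.98, rho = 0.95), while Gad1 and Gad2 gave r = 0.34 and rho = 0.31. Gad1 and Slc6a11 were also near the mean of the 30 interneuron markers (r = 0.96 for both), a list that shares 3 genes with other lists. The genes of that list did not all run the same way. In HT lithium male 4, the library with the highest Gad1 count, Pvalb (300), Sst (2121) and Lhx6 (227), which mark cortical interneurons, were at their lowest of all 30 libraries. In the same library Dlx1 (4192) and Calb2 (4643), which olfactory bulb interneurons also express, were at their highest of any condition. Vip (841) was at neither end of its range there, and Dlx2 (595) was below its count in HT vehicle female 1 (619). The other genes of the list are not given for this library, and the source of its Gad1 count was not tested. Gabrd correlated with the olfactory bulb mean at r = -0.78 (adjusted permutation p = 7e-05) and rho = -0.75 (adjusted p = 0.000306). It was also related to the interneuron mean (r = -0.69, adjusted permutation p = 0.000795) and the astrocyte mean (r = -0.61, adjusted p = 0.0049). With the excitatory neuron mean r was 0.49 (adjusted permutation p = 0.0418, and 0.0882 for rho). Gabrg1 had no relation past the threshold with any of the 5 lists.

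**Figure D4:**
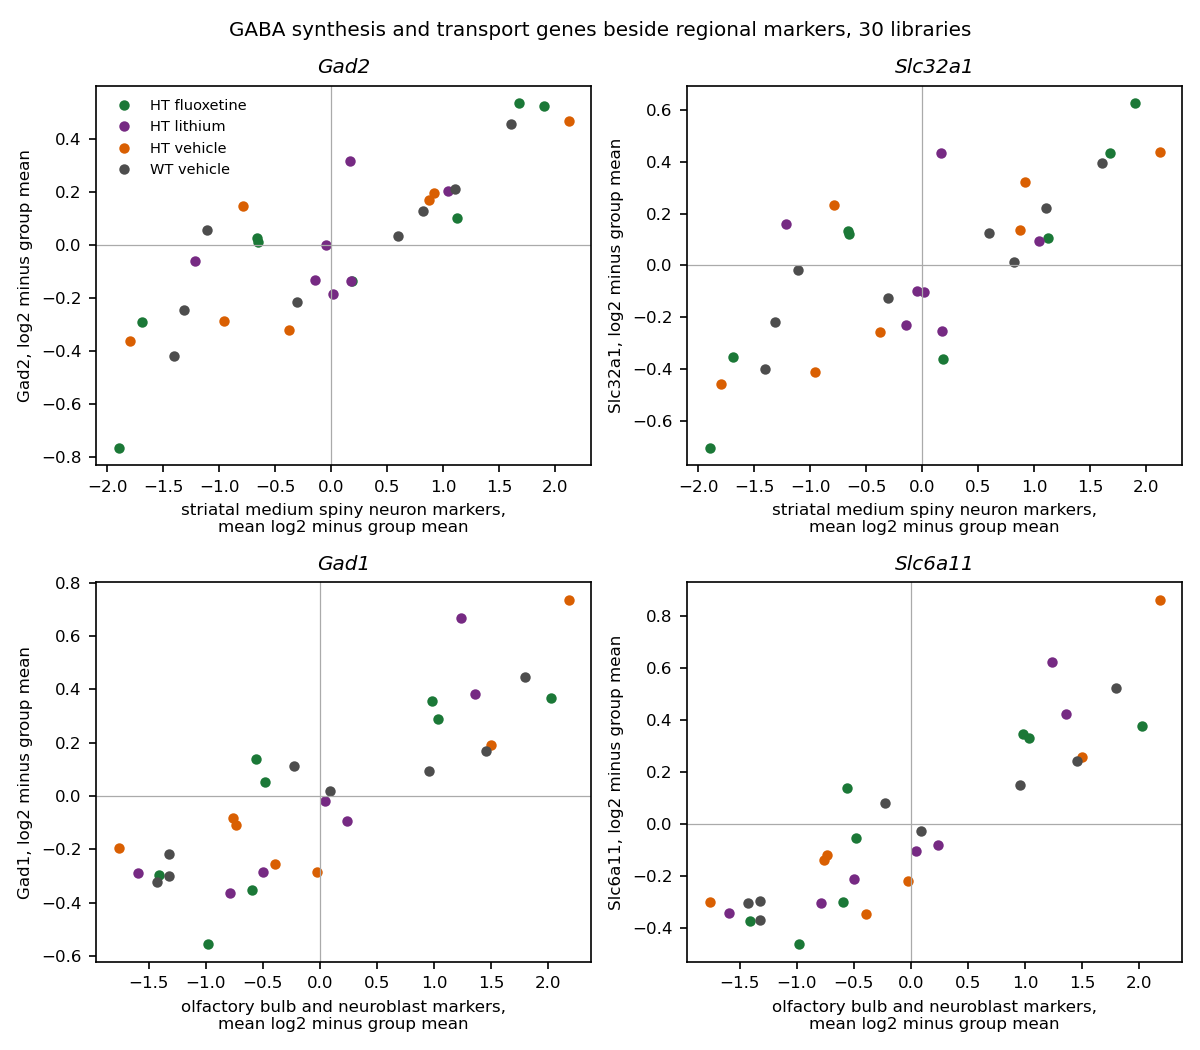
Log2 values of Gad2 and Slc32a1 against the striatal marker mean and of Gad1 and Slc6a11 against the olfactory bulb marker mean, each with its group mean removed, 1 point per library coloured by condition. The points of all 4 conditions lie along the same rising bands, with r of 0.84, 0.75, 0.85 and 0.90.

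Other members followed the same markers, given here as descriptions over the 30 libraries without a test. Gabra5 had r = 0.76 with the olfactory bulb and -0.74 with the striatal mean, and Gabra3 -0.73 with the striatal mean. Iqsec3, a guanine nucleotide exchange factor of inhibitory synapses that binds gephyrin, had r = 0.84 with the olfactory bulb mean. Glra2 (0.78), Clptm1 (0.79), Lhfpl4 (0.71) and Gabrg3 (0.71) were positively related to the striatal mean. Most of these genes were about as strongly related to other lists. With the astrocyte mean, r was -0.80 for Glra2, -0.80 for Clptm1, -0.58 for Lhfpl4 and 0.82 for Iqsec3. With the olfactory bulb mean it was -0.78 for Clptm1 and -0.73 for Gabrg3. Nlgn2, Slitrk3 and Gabrg1 stayed within 0.51 of 0 for all 5 lists.

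**Figure D5:**
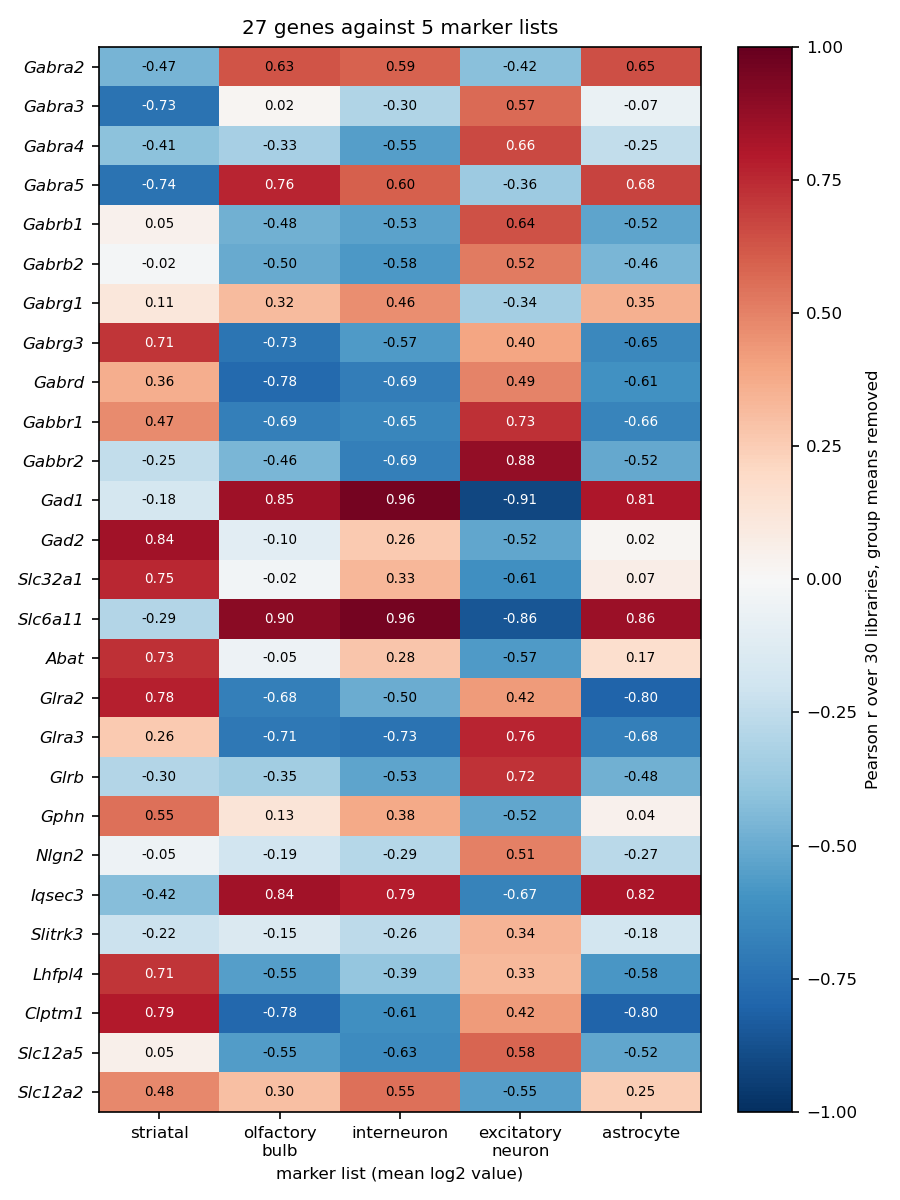
Pearson r over 30 libraries, with group means removed, of the 27 genes (rows, by role) with the mean log2 value of 5 marker lists (columns). Gad1 and Slc6a11 are high for olfactory bulb markers (0.85 and 0.90), Gad2, Slc32a1 and Abat for striatal markers (0.84, 0.75 and 0.73), and Gabbr2 for excitatory neuron markers (0.88).

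When the striatal and olfactory bulb means entered the fit as covariates, the SE of the genotype difference shrank for all 27 members, to 0.367 of its size for Gad2 and 0.977 for Nlgn2. The genotype differences were then 0.07 for Gad1, 0.08 for Gad2, 0.04 for Slc32a1 and -0.06 for Slc6a11, and 0 members were called. Gabra5 was then at -0.13 ± 0.04 (SE) by genotype, with an adjusted p of 0.135 in limma. In HT fluoxetine against WT vehicle it was at -0.17 ± 0.04 (SE) with an adjusted p of 0.00857, the only member called in any fit, against -0.15 ± 0.07 and an adjusted p of 0.388 without covariates. Without covariates 1.49% of all genes were called in this comparison. The share of all genes called with covariates is not given here, so this call cannot be set against it. The marker means were measured in the same libraries, and their part in the result was not tested.

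The glycine receptor genes include the most variable and the lowest of the 27. Glra2, an alpha subunit gene prominent in immature neurons, had 263 to 665 counts in HT fluoxetine, 246 to 625 in HT lithium, 340 to 643 in HT vehicle and 319 to 674 in WT vehicle libraries, with a coefficient of variation of 29.8%. Its intervals were the widest of the members, with half-widths of 0.52 by genotype and 0.54 under lithium on the log2 scale. Glra3 had 228 to 295 counts in HT fluoxetine, 171 to 295 in HT lithium, 183 to 305 in HT vehicle and 237 to 346 in WT vehicle libraries. Glrb, found at GABA synapses as well through its binding to gephyrin, differed by -0.08 by genotype, -0.01 under fluoxetine and 0.01 under lithium.

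Nlgn2 and Gphn, of the scaffold and adhesion genes, varied least of the 27 over the libraries, while Iqsec3 had a coefficient of variation of 10.1%. Gphn had 1804, 1898 and 2094 counts in HT fluoxetine, 1748, 1893 and 1929 in HT lithium, 1868, 1955 and 2037 in HT vehicle and 1803, 1945 and 2056 in WT vehicle libraries. Its difference was 0.00 ± 0.03 (SE) by genotype, -0.03 ± 0.03 under fluoxetine and -0.06 ± 0.04 under lithium. The 95% interval of its genotype difference was -0.07 to 0.07 on the log2 scale. Nlgn2 had 8784 to 9484 counts in HT fluoxetine, 8454 to 9907 in HT lithium, 8883 to 9724 in HT vehicle and 9350 to 9983 in WT vehicle libraries. It differed by -0.05 by genotype and by -0.08 in both drug-treated HT groups against WT vehicle (adjusted p = 0.314 for fluoxetine and 0.21 for lithium in limma). Iqsec3, Slitrk3, an adhesion protein that organises inhibitory presynapses, Lhfpl4, a GABA-A receptor partner needed for its synaptic clustering, and Clptm1, which limits the forward trafficking of GABA-A receptors, differed by -0.07 to 0.08 by genotype, -0.05 to 0.05 under fluoxetine and -0.06 to 0.03 under lithium.

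Of the chloride cotransporters, Slc12a5 had 19778, 20460 and 21568 counts in HT fluoxetine, 16862, 20003 and 21248 in HT lithium, 18458, 20781 and 21520 in HT vehicle and 19718, 20905 and 22762 in WT vehicle libraries. HT lithium libraries reached lowest, and the ranges overlapped. It differed by -0.08 ± 0.05 (SE) under lithium, and by -0.14 ± 0.05 in HT lithium against WT vehicle with an adjusted p of 0.149 in limma. Slc12a2 had 1366, 1709 and 1857 counts in HT fluoxetine, 1621, 1718 and 1943 in HT lithium, 1601, 1771 and 2073 in HT vehicle and 1545, 1743 and 2011 in WT vehicle libraries. Its fluoxetine difference was -0.11 ± 0.06 (SE), with an adjusted p of 1 in limma.

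The comparisons of drug-treated HT mice with WT vehicle mice asked how far treated mutants stand from untreated wild types. In HT fluoxetine against WT vehicle, 0 members passed, beside 1.49% of all genes, and 4 had an unadjusted p under 0.05, beside 12.1%. These were Nlgn2, Gabra5 and Gabbr2 with negative and Iqsec3 with positive differences. In HT lithium against WT vehicle, 0 members passed, beside 1.97% of all genes, and 6 had an unadjusted p under 0.05, beside 17.7%. All 6 differences were negative, between -0.25 and -0.08, and belonged to Gabbr2, Gabbr1, Slc12a5, Nlgn2, Gabrb1 and Clptm1. edgeR and DESeq2 called 0 members in both. These comparisons share the WT vehicle libraries with each other and with the genotype comparison. Set against each other, HT fluoxetine and HT lithium had 0 members past the threshold, beside 0% of all genes, with unadjusted p under 0.05 for Gabrg1 (-0.19) and Gabrg3 (0.14), that is 2 members, beside 6.86%.

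Between the sexes, 0 members passed, beside 0.214% of all genes, and 1, Gabrg1, had an unadjusted p under 0.05, beside 8.05%. Tests of whether each effect differs between males and females called 0 members and 0% of all genes for genotype, fluoxetine and lithium. At an unadjusted p under 0.05 there were 0 members for genotype, beside 2.05%, 0 for fluoxetine, beside 5.96%, and 1 for lithium (Gabrd), beside 10%. edgeR and DESeq2 called 0 members in these 4 tests.

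Further genes of the same pathways were counted in the same fit, in lists chosen by known role. Across the 10 comparisons 1 call was made among 81 genes, in a comparison where 1.49% of all genes were called. Lrrtm4, a synaptic adhesion protein and 1 of the 36 tested genes of receptor trafficking and synapse organisation, fell in HT fluoxetine against WT vehicle mice by 0.25 ± 0.04 (SE) on the log2 scale, with an adjusted p of 0.00095 in limma. It had 777, 835 and 944 counts in HT fluoxetine, and 865, 913 and 1002 in HT lithium, 828, 873 and 1063 in HT vehicle and 942, 1015 and 1088 in WT vehicle libraries. By genotype it differed by -0.17 ± 0.04 (SE) with an adjusted p of 0.0776. The other 4 lists had 0 calls in every comparison. Their medians by genotype ran from -0.03 (GABA and glutamine metabolism) to 0.06 (further receptors and transporters), against -0.001 over all genes. At an unadjusted p under 0.05 there were 10 of the 81 genes for genotype, beside 6.6% of all genes, 2 for fluoxetine, beside 2.63%, and 6 for lithium, beside 5.72%. In the 7 tested further receptor and transporter genes the smallest p belonged to Slc6a12, a betaine and GABA transporter, at 0.58 ± 0.25 (SE) under lithium (adjusted p = 0.858, limma). Among the 10 GABA-B partner and effector genes it was Kctd8, an auxiliary GABA-B subunit, at -0.31 ± 0.15 under lithium, with an adjusted p of 0.873. Among the 12 genes of GABA and glutamine metabolism it was Slc38a5, a glutamine transporter, at 0.30 ± 0.11 by genotype, with an adjusted p of 0.373. Among the 16 genes of chloride and bicarbonate regulation it was Slc4a3, a chloride and bicarbonate exchanger, at -0.11 ± 0.04 by genotype, with an adjusted p of 0.308.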

How the data were processed

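RNA from prefrontal cortex was sequenced as stranded poly(A) libraries, per the labels' protocols. The submitters' processing notes name DESeq2 1.19.11, R 3.6.0, Salmon 0.11.2 and the build GRCm38. The authors deposited a gene-level signal, which the values show to be read counts divided by 1 size factor per library. All values came out as whole reads within 0.01, and these reads were used for the edgeR and DESeq2 alternatives. In the processing here, symbols, coordinates and exon lengths came from GENCODE M21 (18227 of 18240 identifiers had a symbol), and promoters from RefSeq.

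The genes and lists were chosen with earlier results of these data known. Every member is named, and counts are given for the 8 members with the smallest p over genotype, fluoxetine and lithium and for Gad1, Gad2, Slc32a1 and Slc12a5, and for others where a result turns on them. A pathway gene is named if called, otherwise where it has the smallest p of its list. limma 3.58.1 in R 4.3.3 (trend and robust) was fitted to log2(signal + 1) with a mean per group, no covariates and 22 residual degrees of freedom, for genes with a mean of at least 10. Where sex is not named, a comparison averages the female and the male difference. Fold changes on this scale understate the change of low genes. In 42 within-group pairs of libraries, the reads gave a chi-square of 4.78 to 32.0 per degree of freedom, above sampling noise, so each library counted once. The scripts were tested on simulated data. Alternatives were other pseudocounts (0.5, 8), no filter or a mean of 50, TMM scaling, edgeR 4.0.16, DESeq2 1.42.0, only the groups compared, a replicate block, marker covariates, and each library left out in turn.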

Additional observations from a re-analysis of the deposited data

Results flagged for a closer look

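In 162 member and group combinations of 4 libraries each, 13 had 1 library far from the other 3 of its group, where chance alone flags about 1 in 20 such groups. Of these, 4 lay in HT lithium male 4. Slc6a11 was high there at 9492 counts, Iqsec3 at 6521 and Slc32a1 at 3180, while Gabra3 was low at 4240. A further 4 lay in HT vehicle female 1, where Gad1 was high at 16721 and Slc6a11 at 9055, and Gabbr1 was low at 19724 and Glra3 at 183. These are the libraries with the highest olfactory bulb marker means, 10.3 and 10.2. HT lithium male 4 also had the highest meningeal fibroblast (10.3), endothelial and mural (9.80), choroid plexus (7.89) and astrocyte (12.2) marker means. Its excitatory neuron marker mean was the lowest (10.7). The part of any of these markers in the flagged values was not tested. In WT vehicle male 2, Glrb was high at 5426 and Iqsec3 low at 4512. Single flags were Gabra5 in WT vehicle female 2, high at 1836, Slc32a1 in HT fluoxetine male 3, low at 1804, and Slitrk3 in HT fluoxetine female 1, high at 2084.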

How the results depend on the processing

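The 42 alternatives gave 420 counts of called members over the 10 comparisons, and 419 were 0, including 0 without each of the 30 libraries in turn. The exception was the fit with striatal and olfactory bulb marker covariates, which called 1 member, Gabra5, in HT fluoxetine against WT vehicle. The share of all genes called in that fit is not given here. The 16 member results with an unadjusted p under 0.05 kept their sign in all alternatives. Leaving out both HT lithium male 4 and HT vehicle female 1, chosen after the data were seen, called 0 members. With a replicate block, 0 members were called in each comparison. Same-numbered libraries did not deviate together in general: all correlations of a pair of groups were over 0.1 in 2 of 28 pairs, so the numbers were not taken as pairs. Both this check and the block used the replicate numbers of the sample titles, which in HT lithium females differ from the library names for replicates 2 and 3. Other scalings moved the median of all genes by at most 0.00391 on the log2 scale. Low genes such as Glra3 are limited by counting as well as by the spread between libraries.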
